A study of Mus musculus with 15 samples.

Results

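Cells make cholesterol from acetyl-CoA through the mevalonate pathway, and 8 genes of that pathway and its feedback were followed here in mouse dendritic cells (DCs). They were Hmgcs1, Mvd, Idi1, Fdft1, Sqle, Lss and Cyp51, which encode enzymes in that order along the route, and Insig1, which encodes a feedback protein. The genes were chosen by name, with earlier results of these data known, so counts of them below are descriptions. Every probe set annotated with exactly 1 of these symbols was taken, which gave 21 probe sets for the 8 genes. The brightest probe set of a gene, by its mean over the 15 arrays, stood for that gene. The table held 18194 genes, and all 8 were among the 13629 that passed the filter on dim values and were tested. To pass, a gene had to exceed a log2 value of 4.39, the 40th percentile of the table, on 3 or more arrays.

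When sterols in the endoplasmic reticulum run low, the escort protein SCAP carries the transcription factor SREBP2 to the Golgi, where it is cut free and switches on genes of sterol synthesis and uptake. When sterols are plentiful, INSIG proteins hold SCAP and SREBP2 back, and INSIG1 is itself made from an SREBP target gene. DCs are sentinel cells of the immune system, and on maturation they gain the chemokine receptor CCR7, through which they travel within lymphoid tissue.

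The cells were sorted from mice as CD11c+ CD317- CD172a- cells, and hybridised to Affymetrix whole-genome arrays in 5 groups of 3 arrays. Mature thymic cells (CD117- CCR7+) and immature thymic cells (CD117+ CCR7-) came from untreated mice. Mature splenic cells (CD117- CCR7+) came from mice given 10 µg of polyI:C into the peritoneal cavity 18 h earlier and, as a second group, from untreated mice, and immature splenic cells (CD117+ CCR7-) came from untreated mice. PolyI:C is a synthetic double-stranded RNA that imitates viral RNA. The submitters call all 5 groups XCR1+ DCs, but XCR1 is not among the gates listed, and no label gives the strain, age or sex of the mice. No CCR7- cells of polyI:C-treated mice were included, so the polyI:C comparison holds maturation and treatment together, and it shares its CCR7- arrays with the comparison in untreated spleen. All spleen titles carry a set label that thymus titles lack, so tissue and set cannot be told apart. Nothing says whether the 3 arrays of a group came from separate mice or cultures, so the p-values measure only the spread between these samples.

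All values are log2 signals, and levels of different genes cannot be set against each other because their probes differ. Maturation changes are CCR7+ minus CCR7-, the treatment difference is polyI:C minus untreated, and tissue differences are thymus minus spleen, each a log2 fold change from limma's moderated test over all 15 arrays with its standard error (SE). A gene was called higher or lower where its p, adjusted by Benjamini and Hochberg's method across the 13629 genes, was below 0.05. An exact permutation test of 3 arrays against 3 cannot go below a p of 0.1, so the calls rest on limma's pooled spread.

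The sorted phenotypes were visible in the transcripts. Ccr7 averaged 13.03 ± 0.28 in CCR7+ and 8.84 ± 0.35 in CCR7- thymic cells (SD, n = 3 each), and in spleen 12.87 ± 0.28 after polyI:C, 12.95 ± 0.41 in untreated CCR7+ and 8.42 ± 0.83 in CCR7- cells. Kit, which encodes CD117, ran the other way, with 8.16 ± 0.13 in CCR7+ and 10.68 ± 0.58 in CCR7- thymic cells. Xcr1 averaged 5.25 in CCR7+ and 11.4 in CCR7- thymic cells, and 7.54 after polyI:C, 8.03 in untreated CCR7+ and 11.58 in CCR7- splenic cells, so the transcript of the name-giving receptor was lowest in the mature thymic cells. Array medians lay between 4.86 and 5. The 3 prime minus 5 prime difference of the Actb control probe sets, a sign of RNA or amplification quality, was 2.09 on untreated splenic CCR7+ replicate 1 and 1.59 on polyI:C replicate 1, against 0.49 to 1.25 on the other arrays. That of the Gapdh control probe sets was larger on every array. It was 5.22 on the first of these arrays, and 3.98 on the second, within the 2.85 to 4.02 of the others.

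In untreated spleen CCR7+ cells had more of all 8 transcripts than CCR7- cells, whereas 12.3% of all tested genes were called higher there. The rises ran between 0.92 for Lss and 2.45 for Idi1 on the log2 scale, with a median of 1.57, against a median of -0.03 over all tested genes. In 7 of the 8 genes the difference was at least 2-fold, and in all 8 the lowest CCR7+ array lay above the highest CCR7- array. Counts of 2-fold changes and of groups without overlap are not given for all tested genes. Here and below they describe the 8 genes only.

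Hmgcs1, the synthase that joins acetyl-CoA units into HMG-CoA, the entry to the pathway, had 12.60, 11.95 and 12.21 in CCR7+ and 9.95, 10.21 and 10.23 in CCR7- splenic cells. Its rise was 4.35-fold (log2 2.12 ± 0.23 SE, limma adjusted p = 1.06e-05). Mvd, the decarboxylase that makes isopentenyl diphosphate, had 6.77, 6.94 and 7.36 in CCR7+ and 5.61, 5.09 and 5.27 in CCR7- cells, 3.24-fold higher (1.70 ± 0.22, limma adjusted p = 4.09e-05). The separation of the groups was wider for the next enzyme. Idi1, the isomerase that turns isopentenyl diphosphate into dimethylallyl diphosphate, had 12.42, 12.89 and 12.19 in CCR7+ and 10.43, 9.61 and 10.10 in CCR7- cells, 5.47-fold higher (2.45 ± 0.25, limma adjusted p = 4.48e-06).

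The enzymes that commit the pathway to sterols rose as well. Fdft1, squalene synthase, had 10.74, 11.08 and 11.07 in CCR7+ and 8.50, 8.54 and 9.003 in CCR7- splenic cells, a 4.87-fold rise (2.28 ± 0.19, limma adjusted p = 9e-07). Sqle, the epoxidase that oxidises squalene, had 10.45, 11.32 and 10.36 in CCR7+ and 9.52, 8.96 and 9.34 in CCR7- cells, 2.71-fold higher (1.44 ± 0.26, limma adjusted p = 0.00062). Its second CCR7+ array stood above the other two. Lss, which closes the ring to lanosterol, had 8.57, 8.35 and 8.47 in CCR7+ and 7.86, 7.29 and 7.50 in CCR7- cells, and its rise of 1.89-fold was the smallest of the 8 (0.92 ± 0.19, limma adjusted p = 0.00182). Cyp51, the demethylase that acts on lanosterol, had 9.13, 9.53 and 9.80 in CCR7+ and 8.35, 8.19 and 8.24 in CCR7- cells, 2.34-fold higher (1.23 ± 0.16, limma adjusted p = 4.21e-05).

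The feedback gene moved with the enzymes. Insig1 had 9.68, 9.52 and 9.30 in CCR7+ and 8.41, 8.11 and 8.61 in CCR7- splenic cells, 2.17-fold higher (1.12 ± 0.23, limma adjusted p = 0.00139). Lss passed the test on the probe set used but not when the probe sets with the suffix _s_at, _x_at or _a_at, which can match more than 1 transcript or gene, were left out (0.40, limma adjusted p = 0.0771). Leaving out any 1 array, or both CCR7+ arrays with the large Actb end difference, ended no call in this comparison. The mean of 5 B cell markers was also higher on these CCR7+ arrays, at 6.72 to 7.87 against 5.65 to 6.10 on the CCR7- arrays, and its part in these rises was not tested.

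**Figure D1:**
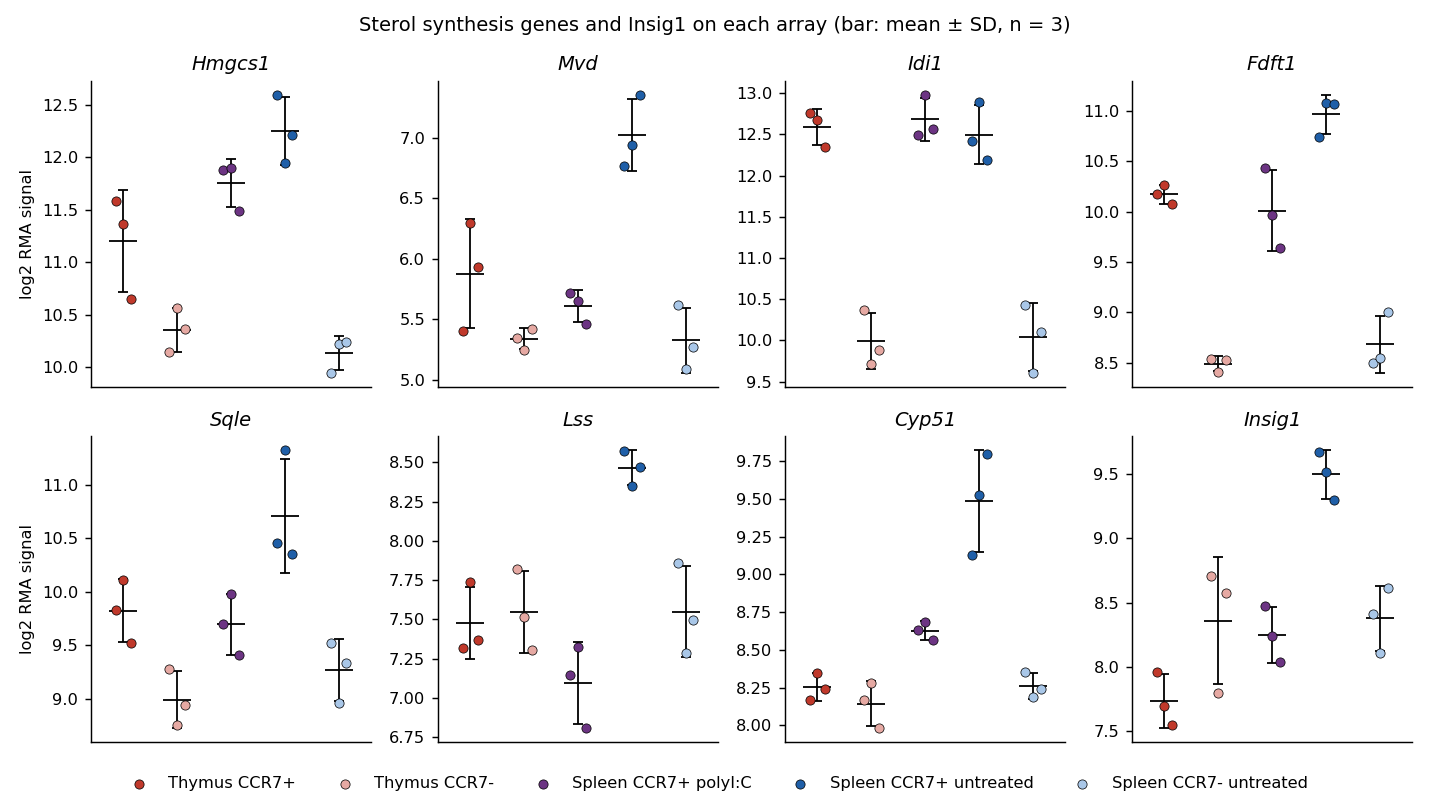
Log2 RMA signal of the 8 genes (vertical axis of each panel) on each of the 15 arrays, with groups along the horizontal axis, points for arrays and bars for the mean ± SD of 3 arrays. In every panel the 3 CCR7+ arrays of untreated spleen lie above the 3 CCR7- arrays of spleen, and in all panels but that of Idi1 they lie above the 3 CCR7+ arrays of thymus.

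The other probe sets of the same genes bear on these values. All 5 probe sets of Hmgcs1 were higher in CCR7+ splenic cells, by 1.48 to 2.78 on the log2 scale, and the second probe set of Idi1 was higher by 2.49. The other 2 probe sets of Cyp51 were higher by 1.63 and 1.08, and the second of Mvd by 0.87. Probe sets disagreed for 2 genes. Of the other 3 probe sets of Fdft1, 1 was higher by 1.71, while 2 dim ones, with means of 4.14 and 4.03 over the arrays, differed by -0.01 and 0.03. The second probe set of Lss was higher by 0.40 and the dimmest, below the filter, differed by -0.04. Sqle and Insig1 each had a single probe set.

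Promoters are shown because the 8 genes rose together in untreated spleen. RefSeq's table (build GRCm38.p6) held the start of 6 of them, and Fdft1 and Sqle were not matched. The 250 bases before each start were searched on both strands for letters known from sterol-regulated promoters. CCAAT, the core of the box bound by NF-Y, a known partner of SREBPs, was in 6 of 6, against 33.8% of all 32851 promoter windows of that length, and GGGCGG, the core of the GC box bound by Sp1, was in 6 of 6, against 32.7%. TCACNNCA, the frame of many sterol regulatory elements, was in 2 of 6, against 11.4%. CACGTG was in 1 of 6, that of Insig1, against 6.02%. A match describes these letters only. The 4 windows below are those of Hmgcs1 and Cyp51, which hold TCACNNCA, and of Idi1 and Insig1. Idi1 rose in all 3 maturation comparisons, as did Hmgcs1 and Fdft1, and Insig1 did not. Each window runs 5′ to 3′ along its gene, with matches to TCACNNCA or to CCAAT on either strand (ATTGG on the other one) in capitals.
Hmgcs1: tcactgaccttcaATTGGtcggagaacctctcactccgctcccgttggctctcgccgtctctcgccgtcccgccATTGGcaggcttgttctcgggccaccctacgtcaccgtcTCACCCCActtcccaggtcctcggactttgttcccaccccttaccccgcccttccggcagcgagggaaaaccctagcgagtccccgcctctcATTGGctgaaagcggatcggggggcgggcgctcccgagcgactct
Idi1: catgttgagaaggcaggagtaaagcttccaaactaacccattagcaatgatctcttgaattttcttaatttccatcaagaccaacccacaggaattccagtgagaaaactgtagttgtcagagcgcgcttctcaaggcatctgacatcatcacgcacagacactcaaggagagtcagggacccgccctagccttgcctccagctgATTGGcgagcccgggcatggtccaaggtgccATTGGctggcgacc
Cyp51: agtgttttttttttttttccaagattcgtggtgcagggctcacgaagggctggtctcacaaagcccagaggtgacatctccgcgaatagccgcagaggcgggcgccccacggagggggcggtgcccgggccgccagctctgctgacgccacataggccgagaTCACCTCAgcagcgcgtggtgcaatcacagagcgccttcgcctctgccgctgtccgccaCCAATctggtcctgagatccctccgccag
Insig1: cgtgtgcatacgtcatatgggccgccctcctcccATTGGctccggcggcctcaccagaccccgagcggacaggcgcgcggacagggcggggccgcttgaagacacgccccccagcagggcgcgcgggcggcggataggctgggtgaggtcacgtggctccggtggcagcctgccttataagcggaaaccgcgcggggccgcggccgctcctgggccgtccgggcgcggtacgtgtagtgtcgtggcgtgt
The Hmgcs1 window is chr13:119690101-119690350 on the plus strand, with TCACNNCA at -137 to -130 from the start and 3 CCAAT matches. The Idi1 window, chr13:8885356-8885605 on the plus strand, has 2 CCAAT matches and no TCACNNCA. Cyp51 lies on the minus strand, and its window, chr5:4104698-4104947, has TCACNNCA at -88 to -81 and 1 CCAAT match. The Insig1 window, chr5:28071162-28071411 on the plus strand, has 1 CCAAT match and CACGTG at -101 to -96.

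After polyI:C, 3 of the 8 genes were higher than in CCR7- splenic cells, whereas 18.4% of all tested genes were called higher, and none was called lower, against 28% of all tested genes. The 3 were Hmgcs1, Idi1 and Fdft1, all by more than 2-fold, and the other 5 did not pass the test. The median over the 8 genes was 0.40 and over all tested genes 0.02.

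Idi1 had 12.50, 12.98 and 12.57 after polyI:C against the 10.43, 9.61 and 10.10 of CCR7- splenic cells, 6.22-fold higher (2.64 ± 0.25, limma adjusted p = 8.28e-07). Hmgcs1 had 11.88, 11.90 and 11.49 after polyI:C, 3.09-fold above CCR7- cells (1.63 ± 0.23, limma adjusted p = 4.56e-05). Fdft1 had 10.43, 9.96 and 9.63 after polyI:C, 2.51-fold above CCR7- cells (1.33 ± 0.19, limma adjusted p = 5.4e-05). In all 3 genes every polyI:C array lay above every CCR7- array of spleen.

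For the remaining enzymes the polyI:C arrays lay among or close to the CCR7- arrays. Mvd had 5.72, 5.65 and 5.46 after polyI:C, a difference of 0.28 from CCR7- cells (95% interval -0.18 to 0.75). Sqle had 9.70, 9.98 and 9.41, a difference of 0.42 ± 0.26 (limma adjusted p = 0.2). Lss had 7.15, 7.32 and 6.81, a difference of -0.45 ± 0.19 (limma adjusted p = 0.0674). Cyp51 had 8.63, 8.69 and 8.56 after polyI:C, and its groups did not overlap, but the difference of 0.37 ± 0.16 did not pass (limma adjusted p = 0.0702). Insig1 had 8.48, 8.24 and 8.03, a difference of -0.13 ± 0.23 (limma adjusted p = 0.67). The results nearest the threshold turned on single arrays. Lss was called lower without CCR7- replicate 2 (-0.58) or polyI:C replicate 2 (-0.57), and Cyp51 was called higher without untreated CCR7+ replicate 1 or 3, which left its difference at 0.37. Cyp51 was also called higher with the mean of its probe sets (0.40), quantile normalisation repeated (0.53) or array weights (0.37).

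Set against the CCR7+ cells of untreated spleen, the polyI:C cells had 6 of the 8 genes lower, whereas 9.66% of all tested genes were called lower, and none higher, against 8.58%. The 6 were Mvd (-1.41 ± 0.22, limma adjusted p = 0.000415), Lss (-1.37 ± 0.19, adjusted p = 0.000207), Insig1 (-1.25 ± 0.23, adjusted p = 0.00145), Sqle (-1.01 ± 0.26, adjusted p = 0.0141), Fdft1 (-0.95 ± 0.19, adjusted p = 0.00327) and Cyp51 (-0.86 ± 0.16, adjusted p = 0.00155). Idi1 differed by 0.19 (95% interval -0.34 to 0.71) and Hmgcs1 by -0.49 (95% interval -0.99 to 0.00). In 7 genes, all but Idi1, every polyI:C array lay below every untreated CCR7+ array, again with no such count given for all tested genes. The call for Sqle ended without untreated CCR7+ replicate 2 (-0.71, limma adjusted p = 0.0548) or polyI:C replicate 3 (-0.87, limma adjusted p = 0.0673), and when just these 6 arrays were fitted (-1.01, limma adjusted p = 0.081). That for Fdft1 ended in the same fit (-0.95), with the mean of its probe sets (-0.39) and without the probe sets with the suffix _s_at, _x_at or _a_at (-0.88), and that for Lss ended without those probe sets (-0.29, limma adjusted p = 0.286). Hmgcs1 was called lower with the mean of its probe sets (-0.67) or its probe set of largest variance (-1.50).

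**Figure D2:**
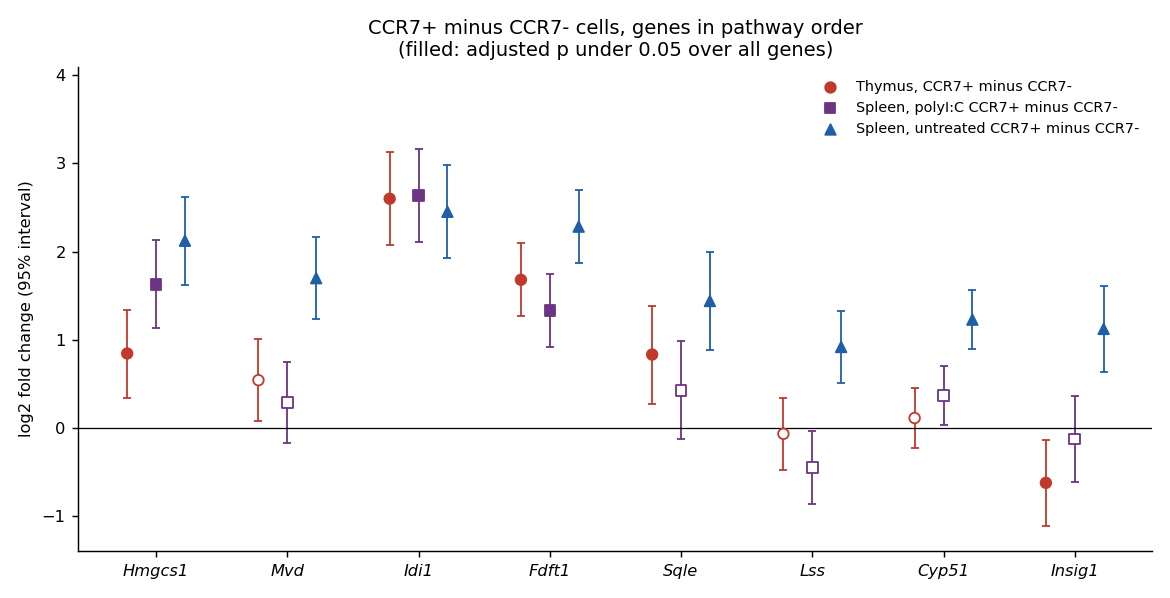
Log2 fold change of CCR7+ against CCR7- cells (vertical axis) for the 8 genes in pathway order (horizontal axis), in thymus, after polyI:C in spleen and in untreated spleen, with 95% intervals. Filled points passed an adjusted p of 0.05. The 8 points of untreated spleen are all filled and above 0, and Idi1 is the gene at which the 3 comparisons lie closest together, between 2.45 and 2.64.

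In thymus 4 of the 8 genes were called higher in CCR7+ cells, whereas 16.8% of all tested genes were called higher, and Insig1 was lower, against 20.4% of all tested genes called lower. The changes ran between -0.63 for Insig1 and 2.60 for Idi1. Their median was 0.68, and that over all tested genes was -0.06.

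Idi1 had 12.76, 12.68 and 12.34 in CCR7+ and 10.37, 9.72 and 9.89 in CCR7- thymic cells, 6.06-fold higher (2.60 ± 0.24, limma adjusted p = 1.35e-06). Fdft1 had 10.17, 10.26 and 10.08 in CCR7+ and 8.54, 8.41 and 8.53 in CCR7- cells, 3.20-fold higher (1.68 ± 0.19, limma adjusted p = 9.17e-06). These were the widest separations in thymus, with no overlap of arrays. Hmgcs1 had 11.58, 11.36 and 10.65 in CCR7+ and 10.14, 10.56 and 10.37 in CCR7- cells, 1.79-fold higher (0.84 ± 0.23, limma adjusted p = 0.0101). Sqle had 9.83, 10.11 and 9.52 in CCR7+ and 9.28, 8.76 and 8.95 in CCR7- cells, 1.78-fold higher (0.83 ± 0.26, limma adjusted p = 0.0202). Neither of these overlapped between the groups, but the third CCR7+ array came close to the CCR7- arrays in both.

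The call for Hmgcs1 ended without CCR7+ replicate 1 (0.65, limma adjusted p = 0.0563). That for Sqle ended without CCR7- replicate 2 (0.71) or 3 (0.80), or without CCR7+ replicate 1 (0.83) or 2 (0.68), with limma adjusted p between 0.0506 and 0.09.

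The other 4 genes gave a mixed picture in thymus. Mvd had 5.41, 6.30 and 5.93 in CCR7+ and 5.35, 5.25 and 5.42 in CCR7- cells, a difference of 0.54 that did not pass (limma adjusted p = 0.0662) but did without CCR7+ replicate 1 (0.78, limma adjusted p = 0.00991). Lss had 7.32, 7.74 and 7.37 in CCR7+ and 7.82, 7.52 and 7.31 in CCR7- cells, a difference of -0.07 ± 0.19. Cyp51 had 8.17, 8.35 and 8.24 in CCR7+ and 8.17, 8.28 and 7.98 in CCR7- cells, a difference of 0.11 ± 0.16. On these probe sets the late enzymes Lss and Cyp51 overlapped between the thymic groups. The other 2 probe sets of Cyp51 differed by 0.58 and 0.37 in thymus, and the mean of its probe sets passed (0.35, limma adjusted p = 0.0268). Insig1 had 7.96, 7.69 and 7.55 in CCR7+ and 8.71, 7.80 and 8.58 in CCR7- cells, lower by the test (-0.63 ± 0.23, limma adjusted p = 0.0413) although the groups overlapped. That call ended without CCR7- replicate 1 (-0.45) or 3 (-0.52), CCR7+ replicate 2 (-0.61) or 3 (-0.53), splenic CCR7- replicate 1 or polyI:C replicate 2 (both -0.63), with limma adjusted p up to 0.179.

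The thymic change was then set against the change in untreated spleen by the difference between both, which uses separate arrays for each tissue. It was negative for 7 of the 8 genes, with a median of -1.05 against 0.00 over all tested genes. It passed the test for 2 genes, both lower in thymus, whereas 1.39% of all tested genes were called lower. These were Insig1 (-1.75 ± 0.32, limma adjusted p = 0.00722) and Cyp51 (-1.12 ± 0.22, limma adjusted p = 0.0118), and none was called higher, against 1.79% of all tested genes.

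Hmgcs1 (-1.28 ± 0.33, limma adjusted p = 0.051), Mvd (-1.16 ± 0.31, adjusted p = 0.0582) and Lss (-0.99 ± 0.27, adjusted p = 0.0705) came close to the threshold. Thymic and splenic arrays with the same number and CCR7 fraction deviated together, and with the replicate number within each fraction as a block 5 genes were called lower. They were Insig1 (limma adjusted p = 0.00133), Cyp51 (adjusted p = 0.0119), Hmgcs1 (adjusted p = 0.0154), Mvd (adjusted p = 0.0216) and Lss (adjusted p = 0.0237), with the same differences. Over all 13629 tested genes the block also raised the calls in either direction, from 433 to 1462. Without a block, Hmgcs1 passed without thymic CCR7+ replicate 1 (-1.47) or untreated splenic CCR7+ replicate 2 (-1.43). Mvd passed without thymic CCR7+ replicate 2 (-1.37), splenic CCR7- replicate 1 (-1.30) or untreated splenic CCR7+ replicate 1 (-1.28), and Lss without splenic CCR7- replicate 1 (-1.14). Sqle differed by -0.61 ± 0.37 and Fdft1 by -0.60 ± 0.27. Idi1, whose transcript rose in all 3 maturation comparisons like those of Hmgcs1 and Fdft1, differed by 0.15 (95% interval -0.60 to 0.89). The difference for Insig1 kept its call under all 28 alternatives tried, and that for Cyp51 under all but 1, in which the probe set of largest variance stood for the gene (-1.05, limma adjusted p = 0.106).

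The polyI:C change minus the thymic change passed for none of the 8 genes, higher or lower, whereas 5.37% of all tested genes were called higher and 8.43% lower. For Hmgcs1 the limma p was 0.0316 before adjustment and 0.142 after it. The differences ran between -0.41 for Sqle and 0.79 for Hmgcs1.

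**Figure D3:**
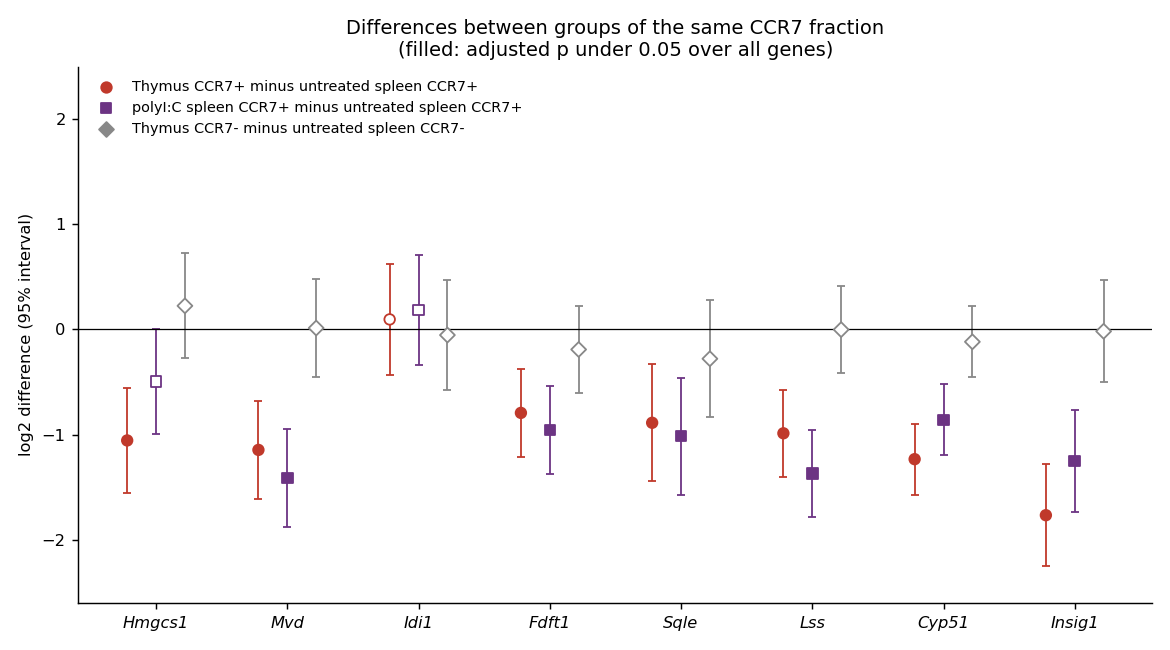
Log2 difference with 95% interval (vertical axis) for the 8 genes (horizontal axis) between CCR7+ cells of thymus and untreated spleen, between polyI:C and untreated CCR7+ cells of spleen, and between CCR7- cells of thymus and spleen. Filled points passed an adjusted p of 0.05. The first 2 comparisons lie below 0 for every gene but Idi1, and the CCR7- points lie between -0.28 and 0.23.

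The tissues were also compared directly within each CCR7 fraction. Between CCR7- cells of thymus and spleen none of the 8 genes passed the test. Over all tested genes, 4.92% were called higher in thymus and 3.24% lower. The lowest limma adjusted p among the 8 was 0.719, for Sqle. The differences lay between -0.28 for Sqle and 0.23 for Hmgcs1. Between CCR7+ cells, 7 of the 8 genes were lower in thymus than in untreated spleen, whereas 3.47% of all tested genes were called lower and 8.71% higher. Insig1 was 3.40-fold lower (-1.77 ± 0.23, limma adjusted p = 0.000143), Cyp51 was 2.35-fold lower (-1.23 ± 0.16, adjusted p = 0.000139), and the others called were Mvd (-1.15), Hmgcs1 (-1.05), Lss (-0.99), Sqle (-0.89) and Fdft1 (-0.79). Idi1 differed by 0.10 (95% interval -0.43 to 0.62).

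The call for Sqle ended without thymic CCR7- replicate 3 (-0.89), thymic CCR7+ replicate 1 (-0.89) or 3 (-0.74), splenic CCR7- replicate 3 (-0.89) or untreated splenic CCR7+ replicate 2 (-0.58), and that for Fdft1 without thymic CCR7+ replicate 3 (-0.75). Calls for Fdft1, Lss and Mvd also ended when probe sets with the suffix _s_at, _x_at or _a_at were left out.

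For each gene the order of the 5 group means can be read from these values. Untreated splenic CCR7+ cells were highest for 7 of the 8 genes, and for Idi1 the 3 mature groups lay within 0.19 of each other. When each gene was centred on its mean over the arrays and the 8 were averaged, thymic CCR7+ cells stood at 0.07 ± 0.17, thymic CCR7- cells at -0.66 ± 0.13, polyI:C cells at 0.15 ± 0.19, untreated splenic CCR7+ cells at 1.05 ± 0.08 and splenic CCR7- cells at -0.61 ± 0.18 (SD, n = 3 each). The thymic CCR7+ and the polyI:C cells thus lay within each other's spread, as did the 2 immature groups.

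The 8 genes did not follow one profile. Over the 15 arrays, which share group structure, Fdft1 and Sqle correlated most with the mean of the other 7 genes (Pearson's r of 0.93 and 0.92), followed by Mvd (0.88), Hmgcs1 (0.86) and Cyp51 (0.86). Idi1 (0.69), Lss (0.56) and Insig1 (0.52) followed it less. The closest pairs were Hmgcs1 with Fdft1 (0.90), Mvd with Cyp51 (0.89) and Idi1 with Fdft1 (0.89), and the loosest were Idi1 with Insig1 (0.11) and Idi1 with Lss (0.13). These are descriptions over arrays of 5 groups and carry no test.

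Outside the genes of the sterol lists, the named genes whose values over the 15 arrays were most like the mean of the 8 were Ehf (r of 0.94), Mrc2 (0.94), Pla2g4f (0.93), Ccdc120 (0.93), Ccl9 (0.93), Abca7 (0.92), Chst7 (0.92) and Icos (0.91). Over the 5 group means their r lay between 0.95 and 0.97. Ehf, an ETS-family transcription factor, averaged 5.11 in CCR7+ and 3.77 in CCR7- thymic cells, and 6.49 after polyI:C, 8.71 in untreated CCR7+ and 4.24 in CCR7- splenic cells.

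The other enzymes of cholesterol synthesis did not all move with the 8. Of 13 listed, 10 had a probe set and were tested, and in untreated spleen 5 were higher and 2 lower in CCR7+ cells (median 0.79), whereas 12.3% of all tested genes were called higher and 24.1% lower. Pmvk, the phosphomevalonate kinase before Mvd, rose by 1.85 in thymus, 0.58 after polyI:C and 1.51 in untreated spleen. Tm7sf2, a sterol reductase after Cyp51, rose by 1.58, 2.13 and 1.78 in the same order, and Hsd17b7, a sterol ketoreductase, by 1.19, 1.61 and 1.46. Msmo1, the oxidase that removes methyl groups, rose by 0.91 in thymus and 0.95 in untreated spleen, and Sc5d, a desaturase, passed in untreated spleen (0.99) and not in thymus (0.02) or after polyI:C (0.41). The values of Sc5d depended on the processing: with the probe set of largest variance it was lower after polyI:C (-1.57, limma adjusted p = 0.000998) and did not pass in untreated spleen (0.57), and with quantile normalisation repeated it was higher after polyI:C (0.60, limma adjusted p = 0.0063). Without the probe sets with the suffix _s_at, _x_at or _a_at, Hsd17b7 no longer passed in thymus (0.57) or untreated spleen (0.56), nor Msmo1 in thymus (0.29). Nsdhl, Ebp, Dhcr7 and Fdps were called higher in none of the 3 comparisons.

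Dhcr7, which makes cholesterol from its last precursor, was lower by the test in thymus (-0.86) and after polyI:C (-1.30) and missed it in untreated spleen (-0.59). Ebp, a sterol isomerase, was lower in all 3 comparisons (-0.34 in thymus, -0.54 after polyI:C and -0.42 in untreated spleen), and Nsdhl, a dehydrogenase, was lower after polyI:C (-1.09) and in untreated spleen (-0.77) but missed in thymus (-0.57). Fdps, which makes farnesyl diphosphate between Idi1 and Fdft1, was lower in thymus (-0.87) and did not pass in spleen (-0.42 after polyI:C and 0.63 untreated). In thymus 4 of the 10 were called higher and 3 lower (median 0.11), against 16.8% and 20.4% of all tested genes, and after polyI:C 3 and 3 (median 0.37), against 18.4% and 28%. Single arrays decided several of these calls. In thymus those for Fdps (-0.83) and Dhcr7 (-0.71) ended without CCR7+ replicate 3, and that for Ebp ended without any 1 of the thymic or the splenic CCR7- arrays (-0.39 to -0.29). After polyI:C that for Pmvk ended without any 1 CCR7- array or polyI:C replicate 2 or 3 (0.46 to 0.61). In untreated spleen that for Ebp ended without CCR7- replicate 2 (-0.39) or CCR7+ replicate 3 (-0.36), and that for Nsdhl without CCR7- replicate 1 or 3 (both -0.73) or CCR7+ replicate 1 (-0.41). There Fdps was called higher without CCR7+ replicate 1 (1.01), and Dhcr7 lower without CCR7- replicate 3 (-0.78) or CCR7+ replicate 3 (-0.86).

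**Figure D4:**
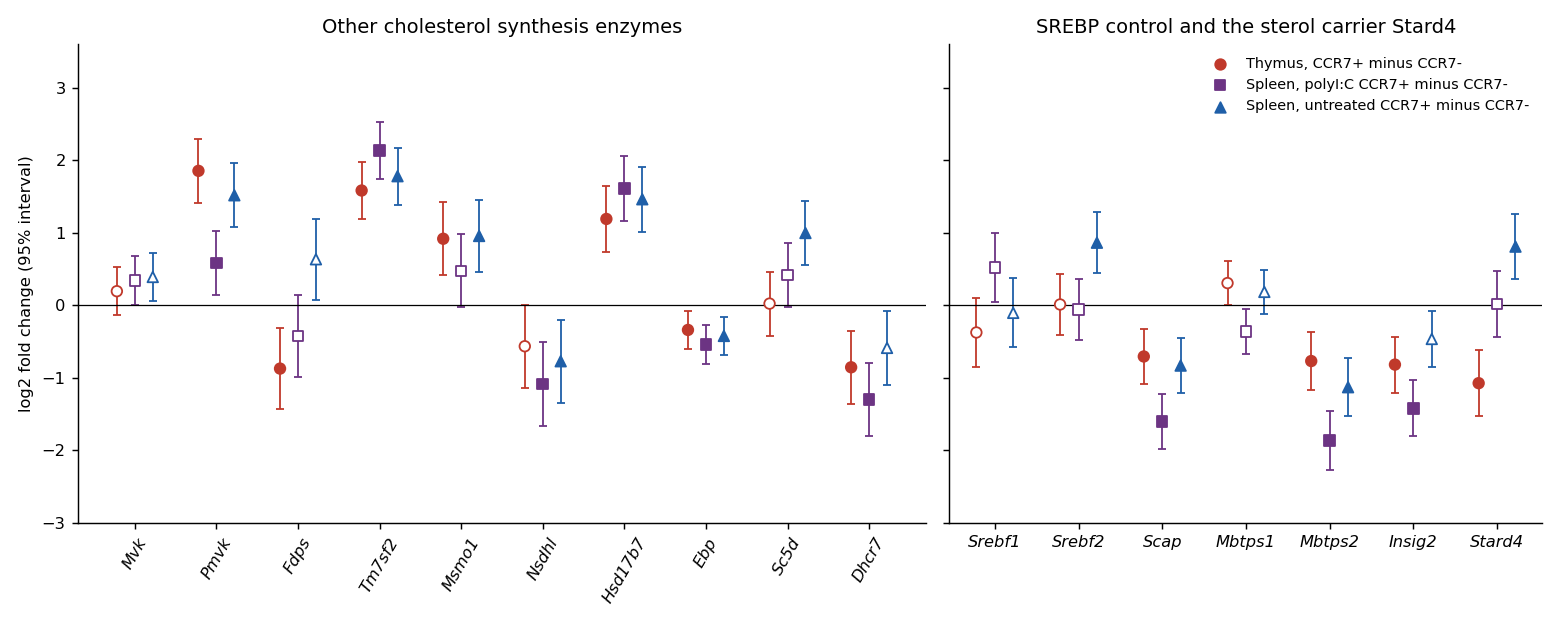
Log2 fold change of CCR7+ against CCR7- cells with 95% intervals (vertical axis) for the 10 other cholesterol synthesis enzymes tested (left panel) and for 7 of the genes of SREBP control and sterol transport (right panel), in thymus, after polyI:C and in untreated spleen. Filled points passed an adjusted p of 0.05. Pmvk, Tm7sf2 and Hsd17b7 are above 0 and Ebp below it in all 3 comparisons, and Srebf2 and Stard4 are above 0 by the test in untreated spleen.

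Among genes that control SREBPs or take up sterols, 17 were listed and 14 tested. In thymus 1 was higher and 6 were lower (median -0.36), whereas 16.8% of all tested genes were called higher and 20.4% lower. After polyI:C 1 was higher and 6 were lower (median -0.44), against 18.4% and 28% of all tested genes, and in untreated spleen 2 were higher and 5 lower (median -0.31), against 12.3% and 24.1%. Scap, the escort of SREBPs, fell by 0.71 in thymus, 1.60 after polyI:C and 0.83 in untreated spleen. Mbtps2, the protease that makes the second cleavage of SREBPs, fell by 0.77, 1.86 and 1.13 in the same order. Insig2, the other INSIG gene, fell by 0.82 in thymus and 1.43 after polyI:C and missed in untreated spleen (-0.47), where it passed under 9 of 27 alternatives, among them the mean of its probe sets (-1.002, limma adjusted p = 0.000383), the probe set of largest variance (-1.41, limma adjusted p = 0.000435), and the removal of untreated CCR7+ replicate 1 (-0.62) or of thymic CCR7+ replicate 2 or 3 (both -0.47).

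Srebf2, which encodes SREBP2, had 9.84, 9.39 and 9.51 after polyI:C, 10.62, 10.17 and 10.73 in untreated CCR7+ and 9.91, 9.62 and 9.39 in CCR7- splenic cells. It was 1.81-fold higher in untreated CCR7+ cells than in CCR7- cells (0.86 ± 0.19, limma adjusted p = 0.0031) and differed by -0.06 after polyI:C. Like 6 of the 8 genes it was lower after polyI:C than in untreated CCR7+ cells (-0.92, limma adjusted p = 0.00435). In thymus it had 9.16, 9.70 and 9.50 in CCR7+ and 9.54, 9.43 and 9.36 in CCR7- cells, a difference of 0.01, and the difference between the tissues' changes did not pass (-0.85 ± 0.28, limma adjusted p = 0.124). Srebf1, which encodes SREBP1, passed in none of the 3 comparisons (-0.38 in thymus, 0.52 after polyI:C and -0.11 in untreated spleen), though it was called higher after polyI:C without polyI:C replicate 2 (0.79) or untreated CCR7+ replicate 1 (0.52).

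Stard4, a cytosolic sterol carrier, was lower in thymic CCR7+ cells (7.39, 7.17 and 6.86) than in CCR7- cells (8.50, 7.77 and 8.38), a difference of -1.08 (limma adjusted p = 0.00092). It was higher in untreated splenic CCR7+ cells (8.57, 8.47 and 8.49) than in CCR7- cells (7.999, 7.29 and 7.82), a difference of 0.81 (limma adjusted p = 0.00772), and the tissues' changes differed by -1.88 ± 0.30 (limma adjusted p = 0.0026). The splenic value depended on the probe set: with the probe set of largest variance, or without _s_at, _x_at and _a_at probe sets, it was -0.02, and the difference between tissues no longer passed (-0.99).

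The fatty acid genes that SREBPs also control were more often lower than higher in mature cells. All 16 listed were tested, and 9 were lower and 1 higher in thymus (median -0.64), 7 and 1 after polyI:C (median -0.71) and 8 and 1 in untreated spleen (median -0.73), whereas 20.4%, 28% and 24.1% of all tested genes were called lower. Over all tested genes, too, fewer were called higher, at 16.8%, 18.4% and 12.3% in the same order. Elovl6, a fatty acid elongase, fell by 2.19 in thymus, 2.47 after polyI:C and 2.20 in untreated spleen. Fasn, fatty acid synthase, fell by 1.87, 2.07 and 1.13 in the same order, and Fads1, a desaturase, by 1.78, 2.81 and 1.81. Lpin1 changed by -1.08, -3.93 and -1.855, with a thymic call that ended under 4 of 27 alternatives. In the same order 6, 8 and 7 of the 16 genes were not called. The only gene of the list called higher was Me1, malic enzyme, which supplies NADPH and rose by 0.49, 0.78 and 0.64. The first of these calls ended without thymic CCR7- replicate 1 (0.31) or 3 (0.55) or any 1 thymic CCR7+ array (0.43 to 0.54).

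Genes of the LXR receptors, which sense oxysterols, were listed together with genes of oxysterols and sterol storage, and this list was called in both directions. Of 13 listed 10 were tested, with 4 higher and 2 lower in thymus, 4 and 3 after polyI:C, and 3 and 3 in untreated spleen. Over all tested genes 16.8%, 18.4% and 12.3% were called higher in the same order, and 20.4%, 28% and 24.1% lower. Abcg1, a sterol exporter, rose by 1.93 in thymus, 1.59 after polyI:C and 1.77 in untreated spleen, and Mylip, whose product marks lipoprotein receptors for degradation, by 0.61, 0.78 and 1.02. Abca1, another exporter, rose by 2.19 in thymus, where the mean of its probe sets gave 0.73, and did not pass in untreated spleen (0.64). It was called higher after polyI:C (0.98, limma adjusted p = 0.0337), a call that ended without splenic CCR7- replicate 1 (0.84) or 3 (1.02) or polyI:C replicate 1 (0.79) or 2 (0.94). Ch25h, which makes 25-hydroxycholesterol, rose by 1.14 after polyI:C and 0.92 in untreated spleen, but its group means, between 3.63 and 4.77, lay near the filter value of 4.39. Nceh1, a cholesteryl ester hydrolase, fell by 1.34, 2.16 and 2.00 in thymus, after polyI:C and in untreated spleen. Apoe, also listed, changed by 1.85 in thymus and -2.27 after polyI:C, and did not pass in untreated spleen (-0.135). Its polyI:C change minus its thymic change was -4.12. Lpcat3 changed by -0.84 in thymus and -1.16 in untreated spleen and did not pass after polyI:C (-0.34). The thymic calls of Apoe and Lpcat3 each ended under 1 alternative.

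For the branches that use isoprenoids for other products, 12 genes were listed and 11 tested, with 1 higher and 5 lower in thymus, 0 and 5 after polyI:C and 0 and 6 in untreated spleen. The shares called lower over all tested genes were 20.4%, 28% and 24.1%, and those called higher 16.8%, 18.4% and 12.3%. Coq2, of ubiquinone synthesis, fell by 2.84 in thymus, 3.05 after polyI:C and 2.34 in untreated spleen. Pdss2, which helps build the ubiquinone side chain, fell by 1.24, 1.75 and 1.18 in the same order. The lists of other cholesterol enzymes, SREBP control, fatty acid, LXR and isoprenoid genes were written with earlier results of these data known, and their counts are descriptions.

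**Figure D5:**
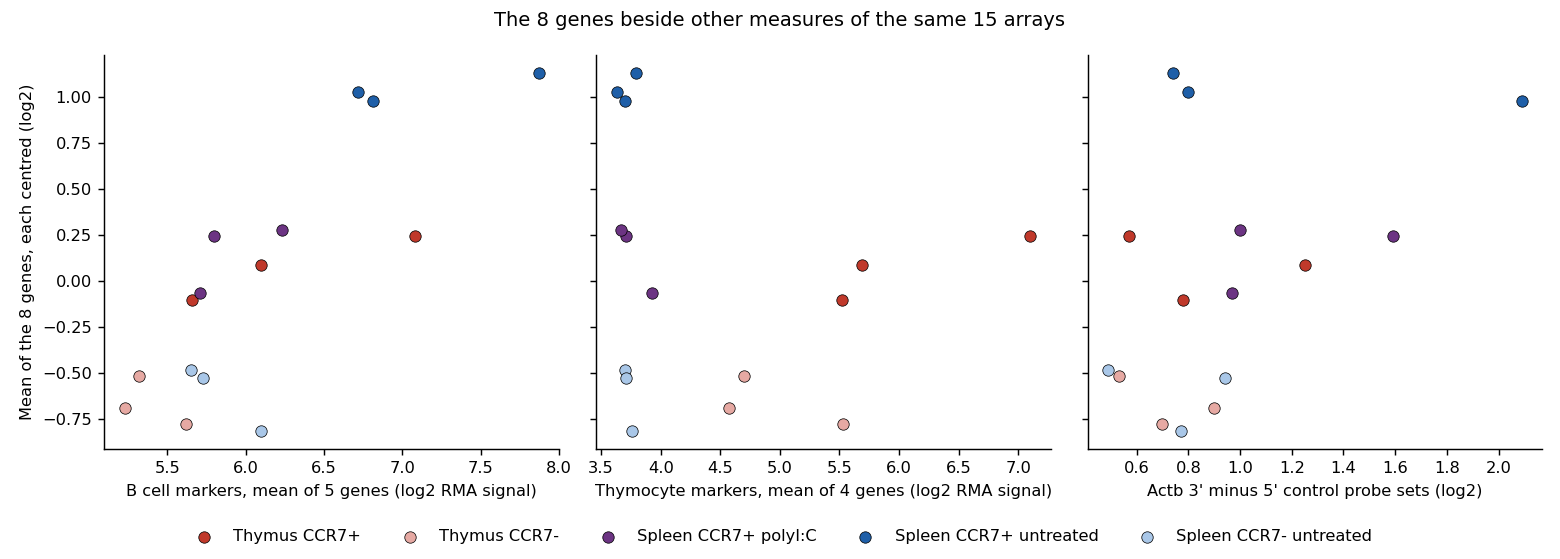
Mean of the 8 genes, each centred on its mean over the 15 arrays (vertical axis, log2), beside the mean of 5 B cell markers, the mean of 4 thymocyte markers and the Actb 3 prime minus 5 prime difference (horizontal axes, log2), with 1 point for each array. The 3 untreated splenic CCR7+ arrays lie highest, at 0.98 to 1.13, and also have high B cell means of 6.72 to 7.87, while only 1 of them, at 2.09, has a large Actb difference.

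Markers of other cell types moved with some of these groups. The B cell mean, from the 5 of 6 listed markers with a probe set, was 5.71 to 6.23 after polyI:C, within or near the range of the splenic CCR7- arrays. In thymus it was 5.66 to 7.08 in CCR7+ and 5.23 to 5.62 in CCR7- cells. Cd79b averaged 5.09 after polyI:C, 8.07 in untreated CCR7+ and 5.45 in CCR7- splenic cells, while the group means of Pax5 stayed between 4.40 and 4.65. Within the 3 untreated splenic CCR7+ arrays the B cell mean was 6.81, 7.87 and 6.72 and the mean of the 8 genes 0.98, 1.13 and 1.03, so replicate 2 was highest for each measure. The same held for replicate 2 of thymic CCR7+ (7.08 and 0.246) and polyI:C cells (6.23 and 0.275). In CCR7- cells replicate 2 had the highest B cell mean but the lowest mean of the 8 genes, in thymus (5.62 and -0.781) and in spleen (6.10 and -0.815).

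Thymocyte markers, 4 of 4 with a probe set, averaged 5.52 to 7.10 on thymic CCR7+ and 4.57 to 5.53 on thymic CCR7- arrays, and 3.63 to 3.93 on all spleen arrays. T cell markers, 7 of 8, averaged 6.22 to 7.40 on thymic CCR7+ and 4.95 to 5.60 on thymic CCR7- arrays. Proliferation genes, 8 of 8, were lower in mature cells, at 6.74 to 7.56 in CCR7+ and 9.74 to 9.92 in CCR7- thymic cells, and at 6.45 to 7.41 after polyI:C, 6.09 to 6.75 in untreated CCR7+ and 7.80 to 9.17 in CCR7- splenic cells. In these bulk samples fewer cells of a type and less RNA per cell cannot be told apart. The part of these markers in the values of the 8 genes was not tested.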

How the data were processed

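The authors deposited log2 values, and the submitters' processing notes name RMA and affy as their tools. Neither tool versions nor the set of arrays normalised together is given in the sources used here. Without detection calls, dim signal and background look alike, and the number of arrays limits the precision. Labels give 40 ng of RNA and 2 rounds of amplification for each array. Of 45101 probe sets, 34958 had exactly 1 symbol in the platform annotation, 932 several and 9211 were not listed.

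A model of 5 group means was fitted to all 15 arrays with limma 3.58.1 in R 4.3.3 (eBayes, 10 residual and 4.01 prior degrees of freedom) and tested on simulated data. The members and lists were chosen with earlier results of these data known. Named from each list were up to 3 genes called higher and 3 called lower with the largest change in each maturation comparison, of which some are printed, with Srebf1, Srebf2, Scap, Insig2 and Ch25h always, and Mbtps1, Msmo1 and Sc5d, outside that rule, were added after their values were seen. Likeness was Pearson's r with the mean of the 8 genes over tested genes outside the lists. Alternatives covered the filter, probe set choice, normalisation, variance model, array weights, the compared groups only, a replicate block and each array left out. The labels state no shared mouse or day, but deviations from the group means paired the arrays between tissues: same-numbered thymic and splenic arrays correlated at 0.52 to 0.57 for CCR7- and at 0.42 to 0.59 for untreated CCR7+ cells. Comparisons of the tissues were therefore also fitted with the number within each CCR7 fraction as a block, over the 12 untreated arrays. Between CCR7+ and CCR7- arrays the numbers did not pair, at -0.06 to 0.16 in thymus, -0.12 to -0.10 in untreated spleen and -0.27 to 0.10 after polyI:C.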

Additional observations from a re-analysis of the deposited data

Results flagged for a closer look

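The differences between the maturation change in one setting and in another, tested as interaction terms with limma, passed for 2 of the 8 genes. Insig1 changed by -0.63 in thymus and by 1.12 in untreated spleen, a difference of -1.75 (limma adjusted p = 0.00722). Cyp51 changed by 0.11 in thymus and by 1.23 in untreated spleen, a difference of -1.12 (limma adjusted p = 0.0118). With the replicate number within CCR7 fraction as a block, 5 of the 8 genes passed in this comparison. Calls over all 13629 tested genes, in either direction, rose from 433 to 1462 with that block.

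Among the other cholesterol enzymes the change of Fdps was -0.87 in thymus and 0.63 in untreated spleen, a difference of -1.51 (limma adjusted p = 0.0405), and that of Pmvk was 0.58 after polyI:C and 1.85 in thymus, a difference of -1.27 (limma adjusted p = 0.01). The thymic change of Stard4 lay -1.88 from that in untreated spleen (limma adjusted p = 0.0026), and its polyI:C change lay 1.09 from the thymic one (limma adjusted p = 0.0251). The polyI:C change minus the thymic change was -0.89 for Scap (limma adjusted p = 0.0298), -1.09 for Mbtps2 (adjusted p = 0.0136) and -0.67 for Mbtps1, the protease of the first cleavage of SREBPs (adjusted p = 0.0422). The calls for Fdps, Scap, Mbtps1 and the second of Stard4 ended when any of several single arrays was left out, with values of -1.58 to -1.25, -0.87 to -0.80, -0.73 to -0.60 and 0.89 to 1.07. With the other alternatives included, the call for Fdps was lost under 16 of 28 and that for Mbtps1 under 15 of 27. That for Scap was lost under 11 of 27, and the second of Stard4 under 6 of 27, with 2 more reversed.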

How the results depend on the processing

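Every result on the 8 genes was recomputed under 27 alternatives, and tissue comparisons under 28; the removal of 2 arrays together and the block within CCR7 fraction were added after seeing the data. Of 1752 values, 1688 kept their side of the threshold, 35 lost their call, 29 gained one and 0 called values reversed. Some values that were not called changed sign, such as that of Lss in thymus (-0.20 to 0.07). All 8 genes stayed higher in untreated spleen except Lss without _s_at, _x_at and _a_at probe sets. Genes lower in thymus numbered 1, against 0 with trend and robust settings and 0 with the compared groups only, and 0 to 1 with each array left out. After polyI:C the genes called lower numbered 0, and 0 to 1 with each array left out. The count lower in the thymic minus the untreated splenic change was 2, against 1 with the probe set of largest variance, 4 with quantile normalisation repeated, 4 with trend and robust settings, 4 with array weights and 2 to 4 with each array left out. The count lower in thymic than in untreated splenic CCR7+ cells was 7, against 4 without _s_at, _x_at and _a_at probe sets, and 5 to 7 with each array left out. The causes were not tested.

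The lists were put through the same alternatives, added after seeing the data. Other cholesterol enzymes higher in thymus were 4, against 1 without _s_at, _x_at and _a_at probe sets, and those lower 3, with 0 to 4 with each array left out. Those lower in untreated spleen were 2, against 0 with quantile normalisation, 0 with the compared groups only, 1 with array weights, 1 without both arrays of large Actb difference and 1 to 2 with each array left out. Those higher after polyI:C were 3, against 5 with the mean of probe sets, 6 with quantile normalisation and 2 to 4 with each array left out. SREBP control genes higher in thymus were 1, against 2 with the mean of probe sets, array weights or the compared groups only, 0 with quantile normalisation and 0 to 1 with each array left out. Those higher in untreated spleen were 2, against 1 without _s_at, _x_at and _a_at probe sets, and those higher after polyI:C 1, against 2 with the mean of probe sets or without both arrays, 3 with quantile normalisation or array weights and 1 to 3 with each array left out. Fatty acid genes higher were 1 in each comparison, against 0 in thymus with quantile normalisation or the compared groups only, 2 in untreated spleen without both arrays, and with each array left out 0 to 1 in thymus, 1 to 2 after polyI:C and 1 to 2 in untreated spleen. With each array left out, genes of the LXR, oxysterol and sterol storage list lower in thymus were 1 to 2, isoprenoid genes lower there 2 to 5 and higher 0 to 1, and the last were 0 without _s_at, _x_at and _a_at probe sets. Stard4 reversed with the probe set of largest variance or without those probe sets, to -0.021 in untreated spleen and to -0.332 for the polyI:C minus the thymic change.

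With the replicate number within CCR7 fraction as a block, which follows the pairing of thymic with splenic arrays, the count lower in the thymic minus the untreated splenic change was 5, against 2 without it, and no other call of the 8 genes changed. Calls over all 13629 tested genes in that comparison, in either direction, rose from 433 to 1462. With 1 block for each number over all 15 arrays, the genes called higher were 4 in thymus, 8 in untreated spleen and 3 after polyI:C, and no call of the 8 genes changed. Signal near the filter value of 4.39 limits Ch25h and the dim probe sets of Fdft1 and Lss, whose fold changes are compressed there. Some group means of other named genes also lay near or below it. Among them were Elovl6 in thymic CCR7+ (4.14) and polyI:C cells (4.52) and Tm7sf2 in splenic CCR7- cells (4.50). Pdss2 after polyI:C (4.665) and Ehf in CCR7- cells of thymus (3.77) and spleen (4.24) were others. Of the 8 genes, Mvd averaged 5.339 in thymic and 5.325 in splenic CCR7- cells and 5.609 after polyI:C. These means lay above the filter value but not far from the array medians of 4.86 to 5. Whether its changes are compressed was not tested.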
